A study of Mus musculus with 10 samples.

Results

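Cdk5, its 2 activators Cdk5r1 and Cdk5r2, and 5 genes named for binding it (Cdk5rap1, Cdk5rap2, Cdk5rap3, Cables1 and Cables2) were followed through 10 libraries of ribosome-bound RNA from the mouse hippocampus. The 8 genes were found by their GRCm38 symbols among the 54838 genes counted, and all 8 were among the 16806 that passed the filter on low counts. The set was selected on the dorsal against ventral values of these same libraries, because the study names Cdk5 as higher in the ventral hippocampus. The dorsal-ventral differences of the 8 genes are therefore given as a description, without p-values. Where the 8 genes are called enriched below, the rule uses an adjusted p from the contrast that chose them, so the calls also only describe.

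The libraries were made by TRAP, in which ribosomes carrying EGFP-tagged L10a are precipitated with the mRNA they are translating. All animals were male C57BL/6 mice of the genotype Drd2-Cre;Eef1a1LSL.eGFPL10a/+, about 10 weeks old, in which Cre under the Drd2 gene switches the tagged ribosomal protein on. The 5 dorsal libraries came from the dorsal part of the hippocampus and the 5 ventral libraries from the rest, without the ventral subiculum, and each library held tissue pooled from 5 mice. Drd2-Cre marks hilar mossy cells, the glutamatergic neurons of the dentate hilus. It also marks GABAergic interneurons, which the study describes as sparse in its images and as a substantial subset among its limitations. The study also allows that a little subicular tissue may have stayed in. The libraries are therefore enriched for mossy cells and are not pure. Both regions were dissected from the same mice, so that the dorsal and ventral libraries share animals, and which libraries share a pool is not stated. The main fit treats the 10 libraries as separate, and its p-values measure the spread between libraries of pooled tissue and not between mice.

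Counts on genes ranged from 11138676 to 20594364 per library. A floor was set at 3 counts, which corresponded to 0.146 to 0.269 CPM, the count scaled to a common library size. All 7 mossy cell markers were detected, with a summed level of 1731 to 2005 CPM on the dorsal side and 1794 to 2102 CPM on the ventral side. The single markers moved in both directions. By log2 fold change, dorsal over ventral, 3 were dorsal-enriched, Cyp26b1 (1.05), Gria2 (0.81) and Gria3 (0.70). Another 2 were ventral-enriched, Satb1 (-0.74) and Calb2 (-3.24), a ventral mossy cell marker. The groups also differed in other ways. Read pairs falling outside genes made up 27.0% ± 5.1 of pairs on the dorsal side (SD, n = 5) and 14.4% ± 3.0 on the ventral side (n = 5). Mitochondrially encoded mRNA measured 2773 to 3523 CPM in dorsal libraries and 447 to 1257 CPM in ventral ones, without overlap. The 6 oligodendrocyte markers summed to 2199 to 2574 CPM (dorsal) and 792 to 1453 CPM (ventral), with 3 of the 6 dorsal-enriched. The 6 GABAergic neuron markers summed to 3121 to 4239 CPM (dorsal) and 3759 to 5001 CPM (ventral), with 2 of 6 ventral-enriched, and no marker in these 3 lists was at 0 in any library. The part of these differences in the values below was not tested.

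Cdk5 is an atypical cyclin-dependent kinase that works mainly in neurons that have left the cell cycle. It is inactive alone and is switched on by binding p35, the product of Cdk5r1, or p39, the product of Cdk5r2, neither of which is a cyclin. The calcium-dependent protease calpain can cut p35 to the longer-lived p25, which frees the kinase from the membrane, and the microtubule-binding protein tau is among the best known substrates of the kinase. The Cdk5rap and Cables genes were named from binding to Cdk5 or its activators, but they are not one family and several have other main roles.

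The 2 activator transcripts are shown first, because their values can be compared only if their reads can be told apart. Both coding sequences open with the glycine codon, here in capitals, that follows the start codon and carries the myristoyl group by which p35 and p39 attach to membranes.
Cdk5r1: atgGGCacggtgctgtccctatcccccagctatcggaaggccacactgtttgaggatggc
Cdk5r2: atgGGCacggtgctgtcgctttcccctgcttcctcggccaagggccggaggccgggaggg
The longest stretch identical in both, in capitals below, lies at the part of the coding sequence that starts at base 694 in Cdk5r1 and base 802 in Cdk5r2 in the lines shown.
Cdk5r1: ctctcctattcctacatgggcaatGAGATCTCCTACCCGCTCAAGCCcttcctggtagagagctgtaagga
Cdk5r2: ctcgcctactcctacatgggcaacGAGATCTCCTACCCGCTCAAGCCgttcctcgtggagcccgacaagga
This stretch was 23 bases long, also when the whole transcripts were compared, against a read length of 50 bases. Of the 50-base stretches in the GENCODE transcripts (GRCm38), 0 of 2213 in Cdk5, 0 of 4161 in Cdk5r1 and 0 of 2750 in Cdk5r2 occurred in another gene on either strand. The coding sequences differed in base composition, with 59.5% G and C in Cdk5r1 (921 bases without the stop codon) and 70.6% in Cdk5r2 (1107 bases).

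The kinase gene itself was higher in ventral libraries. Cdk5 (ENSMUSG00000028969, chromosome 5, 24418241 to 24423530, minus strand, GRCm38) measured 37.0, 34.4, 32.5, 44.3 and 36.8 CPM in dorsal libraries 1 to 5 and 63.8, 62.8, 45.5, 62.7 and 55.7 CPM in ventral libraries 1 to 5. Every ventral library was above every dorsal one, although ventral library 3 was close to dorsal library 4. The dorsal mean was 37.0 ± 4.5 CPM and the ventral mean 58.1 ± 7.7 CPM (SD over 5 libraries), a log2 fold change, dorsal over ventral, of -0.65 (SE 0.13), or 1.57-fold higher in ventral libraries. Of all tested genes, 36.3% had a larger absolute log2 fold change. In a bulk library, fewer cells expressing a gene and less RNA per cell cannot be told apart.

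**Figure D1:**
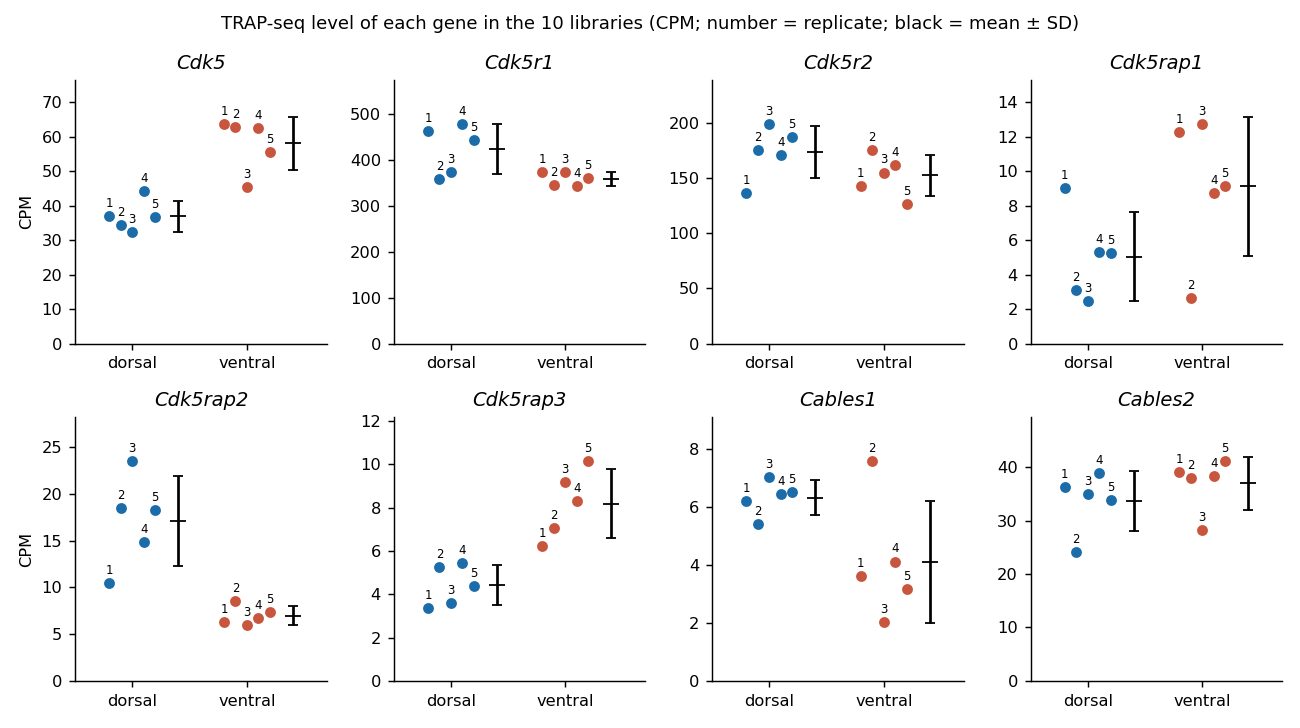
Level of each of the 8 genes in CPM (vertical axes from 0, one scale per gene) in the 5 dorsal (blue) and 5 ventral (red) libraries. Each point is a library with its replicate number, and the black bar is the mean ± SD. The groups do not overlap for Cdk5, Cdk5rap2 and Cdk5rap3.

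Neither activator followed the kinase. Cdk5r1 (ENSMUSG00000048895, chromosome 11, 80477023 to 80481184, plus strand), which codes for p35, measured 464, 359, 373, 479 and 443 CPM in dorsal libraries 1 to 5 and 374, 344.5, 375, 343 and 361 CPM in ventral libraries 1 to 5. Dorsal libraries 1, 4 and 5 lay above all ventral ones and dorsal libraries 2 and 3 lay among them. The log2 fold change was 0.24 (SE 0.10), and the ventral libraries varied little, with a coefficient of variation of 4.30% against 12.8% in dorsal libraries. Cdk5r2 (ENSMUSG00000090071, chromosome 1, 74854934 to 74857732, plus strand), which codes for p39, measured 136, 175, 199, 171 and 187 CPM in dorsal libraries and 143, 175, 155, 162 and 127 CPM in ventral libraries, in the same order. The groups overlapped over most of their range, and the log2 fold change was 0.20 (SE 0.12).

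Set against the kinase, the activator transcripts were more abundant in dorsal libraries. Per exonic length (RPKM, the CPM divided by the exonic length in kilobases), the sum of Cdk5r1 and Cdk5r2 was 9.39, 9.39, 10.7, 8.62 and 10.2 times the level of Cdk5 in dorsal libraries 1 to 5 and 4.79, 5.02, 6.93, 4.85 and 5.14 times in ventral libraries 1 to 5. The lowest dorsal ratio was above the highest ventral ratio, that of ventral library 3, in which Cdk5 was lowest among the ventral libraries. The mean ratio was 9.67 ± 0.82 on the dorsal and 5.35 ± 0.89 on the ventral side (SD, n = 5). These ratios rest on the same dorsal-ventral values as the choice of the genes and are not tested. Cdk5r1 made up 62.0% ± 5.6 of the summed activator level in dorsal libraries and 61.4% ± 3.6 of it in ventral ones, so that the balance of the 2 activators differed by less than the spread between libraries.

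**Figure D2:**
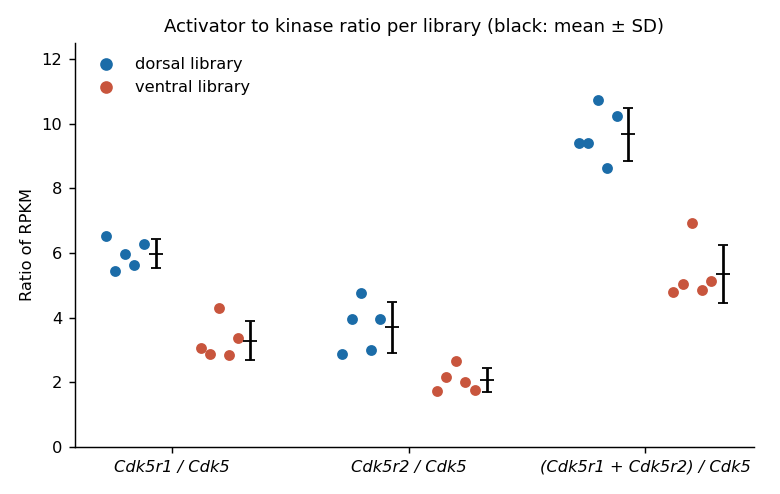
Ratio of activator to kinase level (RPKM over RPKM, vertical axis from 0) in each dorsal (blue) and ventral (red) library, for Cdk5r1, Cdk5r2 and their sum. Black bars are the mean ± SD, and the summed ratio was 8.62 to 10.7 in dorsal and 4.79 to 6.93 in ventral libraries.

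Of the 3 Cdk5rap genes, 1 was higher in dorsal and 1 in ventral libraries without overlap. Cdk5rap2 (ENSMUSG00000039298, chromosome 4, 70216856 to 70410443, minus strand) codes for a centrosomal protein that anchors the gamma-tubulin complexes from which microtubules grow. It measured 10.4, 18.4, 23.5, 14.8 and 18.2 CPM in dorsal libraries 1 to 5 and 6.27, 8.54, 5.99, 6.71 and 7.32 CPM in ventral libraries 1 to 5. All dorsal libraries lay above all ventral ones, with dorsal library 1 the nearest to them. Its log2 fold change of 1.32 (SE 0.23), or 2.49-fold higher in dorsal libraries, was the largest among the 8 genes, and 16.6% of tested genes had a larger absolute value. Of its 50-base stretches, 3.01% also occurred in other genes.

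Cdk5rap3 (ENSMUSG00000018669, chromosome 11, 96907426 to 96916496, minus strand) codes for a subunit of the ligase that attaches the ubiquitin-like protein UFM1 to its targets. It measured 3.39, 5.26, 3.61, 5.47 and 4.40 CPM in dorsal libraries 1 to 5 and 6.21, 7.04, 9.20, 8.29 and 10.2 CPM in ventral libraries 1 to 5. The ranges did not overlap, with dorsal library 4 and ventral library 1 less than 1 CPM apart. The log2 fold change was -0.87 (SE 0.24), or 1.83-fold higher in ventral libraries, from 36 to 91 counts per dorsal and 80 to 215 per ventral library. The annotation places 5.95% of its exonic length in common with D030028A08Rik, so that its count is uncertain to that extent. Without ventral library 5, Cdk5rap3 no longer passed the rule for ventral enrichment (log2 fold change -0.75).

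Cdk5rap1 (ENSMUSG00000027487, chromosome 2, 154335380 to 154373010, minus strand) codes for an enzyme that adds a methylthio group to mitochondrial tRNAs. It measured 9.03, 3.12, 2.45, 5.29 and 5.26 CPM in dorsal libraries 1 to 5 and 12.3, 2.64, 12.7, 8.73 and 9.16 CPM in ventral libraries 1 to 5. Ventral library 2, with 30 counts, lay among the lowest dorsal libraries, and dorsal library 1 lay among the ventral ones. The log2 fold change of -0.95 had the widest error of the 8 genes (SE 0.37). It was -1.14 without ventral library 2 and -1.21 without dorsal library 1, and in both cases Cdk5rap1 passed the rule for ventral enrichment.

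The Cables proteins link Cdk5 to the tyrosine kinase Abl. Cables1 (ENSMUSG00000040957, chromosome 18, 11839220 to 11945630, plus strand) measured 6.21, 5.39, 7.02, 6.43 and 6.52 CPM in dorsal libraries 1 to 5 and 3.61, 7.57, 2.03, 4.11 and 3.16 CPM in ventral libraries 1 to 5. Dorsal values were close together (coefficient of variation 9.42%), and 4 ventral libraries lay below all of them, while ventral library 2 was the highest of all 10. The log2 fold change was 0.68 (SE 0.29), and without ventral library 2 it was 0.93 and Cables1 passed the rule for dorsal enrichment. The antisense gene Gm6277 shares 34.2% of the exonic length of Cables1, and since the strand setting of the counting is not stated, the level of Cables1 is uncertain.

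Cables2 (ENSMUSG00000038990, chromosome 2, 180258540 to 180273496, minus strand) measured 36.3, 24.2, 34.96, 38.8 and 33.9 CPM in dorsal libraries 1 to 5 and 39.1, 38.03, 28.3, 38.3 and 41.1 CPM in ventral libraries 1 to 5. The groups overlapped, with 1 low library in each (dorsal 2 and ventral 3), and the log2 fold change was -0.15 (SE 0.15). Of its 50-base stretches, 8.37% also occurred in other genes, Gm6190 being the gene that shares the most. The ratio of Cables2 to Cables1 in RPKM was 3.74 to 5.04 in dorsal libraries and 7.79 to 11.7 in ventral libraries 1, 3, 4 and 5, with ventral library 2 at 4.20.

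Enrichment required an adjusted p under 0.05 (quasi-likelihood test of edgeR, adjusted by Benjamini-Hochberg across the 16806 genes). It also required group means, each with 1 CPM added, that differed by more than 0.58 on the log2 scale. By this rule 1 of the 8 genes, Cdk5rap2, was dorsal-enriched, as were 15.7% of all tested genes, and 2 of the 8, Cdk5 and Cdk5rap3, were ventral-enriched, as were 9.85% of all tested genes. The dorsal libraries lay entirely above the ventral ones for 1 of the 8 and for 9.81% of tested genes, and entirely below them for 2 of the 8 and for 8.36%. These counts describe genes chosen on this contrast. The median log2 fold change of the 8 genes was 0.02, beside -0.0044 over all tested genes, with 4 genes higher in each direction.

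Correcting for GC content and for length, which removes a smooth trend of expression on both from each library, changed several of these values. It moved the log2 fold change of Cdk5 to -0.53 (SE 0.13) and that of Cdk5rap3 to -0.60 (SE 0.24), and neither then passed the rule for enrichment. Cdk5r1 moved to 0.48 (SE 0.11) and Cdk5r2, whose transcript is 63.9% G and C, to 0.53 (SE 0.13), both short of the fold threshold. Cables1 moved to 0.999 (SE 0.28) and was then dorsal-enriched, Cables2 changed sign to 0.11 (SE 0.14), and Cdk5rap2 stayed dorsal-enriched at 1.40 (SE 0.25). Cdk5 and the 2 activators kept their opposite signs.

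**Figure D3:**
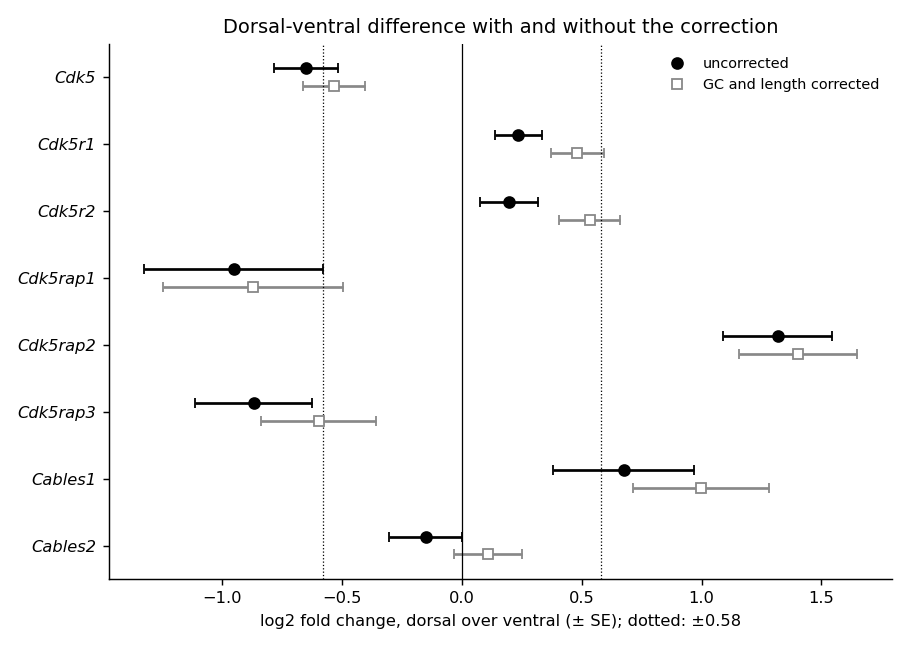
Log2 fold change, dorsal over ventral, of each gene (points, ± SE) without (black circles) and with (open squares) the GC and length correction. Dotted lines mark ±0.58, the size of the fold threshold, and Cdk5 moved from -0.65 to -0.53 while Cables2 crossed 0.

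The levels of the 8 genes per exonic length spanned 2 orders of magnitude. Over the 10 libraries the mean was 94.1 ± 12.2 RPKM for Cdk5r1, the 393rd highest of the tested genes, 58.3 ± 8.2 for Cdk5r2 and 21.9 ± 5.8 for Cdk5 (SD, n = 10). Both activator transcripts were thus above the kinase, Cdk5r1 above Cdk5r2 by 1.62-fold and Cdk5r2 above Cdk5 by 2.71-fold, in 10 of 10 libraries each. Cables2 followed at 7.68 ± 1.15 RPKM, below Cdk5 in 10 of 10 libraries. The remaining 4 genes were low, with Cdk5rap1 at 2.06 ± 1.12, Cdk5rap3 at 1.65 ± 0.61, Cables1 at 1.36 ± 0.48 and Cdk5rap2 at 0.925 ± 0.482 RPKM.

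Neighbours in this order were compared within each library by the difference of log2(RPKM + 0.1), given as mean ± SD over the 10 libraries. Cdk5r1 exceeded Cdk5r2 by 0.69 ± 0.27, Cdk5r2 exceeded Cdk5 by 1.44 ± 0.51, Cdk5 exceeded Cables2 by 1.47 ± 0.32 and Cables2 exceeded Cdk5rap1 by 2.04 ± 0.83, each in 10 of 10 libraries. Cables1 exceeded Cdk5rap2 by 0.56 ± 0.47, in 9 of 10 libraries. Cdk5rap1 and Cdk5rap3 differed by 0.18 ± 0.77 (Cdk5rap1 higher in 7 of 10 libraries) and Cdk5rap3 and Cables1 by 0.28 ± 0.996 (Cdk5rap3 higher in 4 of 10). Both differences were less than the spread between libraries, so the order of these 3 genes was not resolved. Cdk5rap2 was compared only with its neighbour Cables1. In dorsal libraries its mean was above that of Cdk5rap3 (1.31 against 1.16 RPKM), so its last place was not resolved either. No p is given for the order, since it was set from the same libraries, and since the libraries share mice: 5 pools allow no exact p under 0.0625. Cdk5rap3 was above Cables1 in 0 of 5 dorsal and 4 of 5 ventral libraries. With the longest transcript in place of the exonic length all 7 neighbours kept their order, and in dorsal libraries alone Cables1 moved up to rank 5 and Cdk5rap3 down to rank 8.

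**Figure D4:**
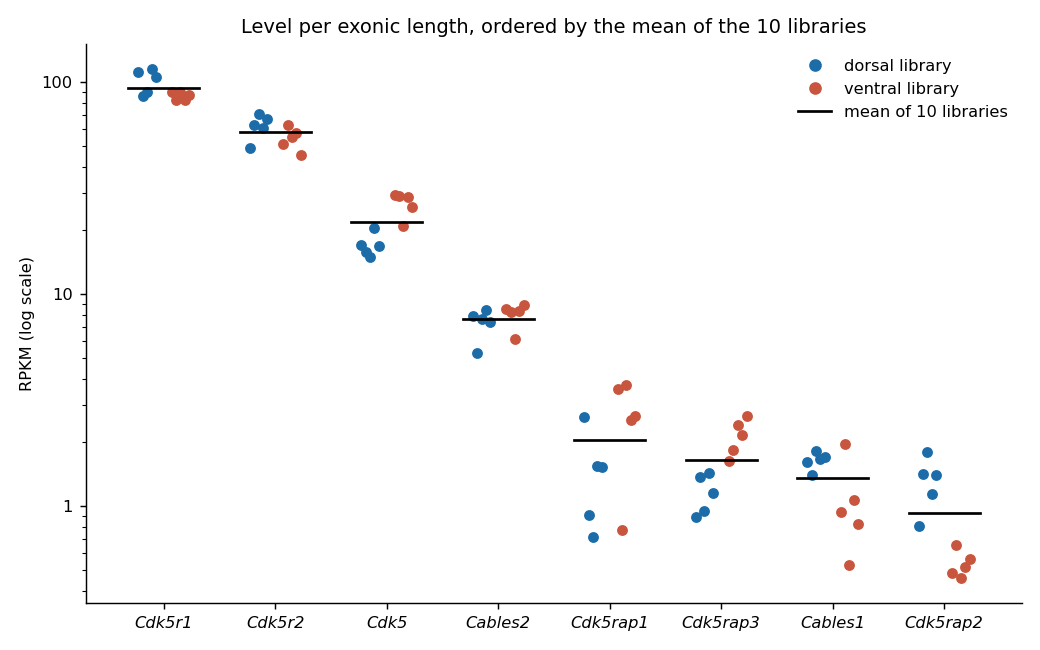
Level per exonic length (RPKM, log scale) of the 8 genes in each dorsal (blue) and ventral (red) library, ordered by the mean of the 10 libraries (black line). Cdk5r1, Cdk5r2, Cdk5 and Cables2 stand in the same order in all 10 libraries, and the other 4 genes lie between 0.461 and 3.71 RPKM.

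How the genes varied from pool to pool, apart from the dorsal-ventral difference, was described by Pearson's r over the 10 libraries. The r was taken on log2(CPM + 1) after the group means were subtracted. All genes of a library carry that library's depth and composition, which differed between libraries. Cdk5 had an r of 0.36 with Cdk5r1 and -0.058 with Cdk5r2, while Cdk5r1 and Cdk5r2 had an r of -0.49 with each other. Among the 28 pairs the highest r was 0.75, for Cdk5r2 and Cdk5rap2, and the lowest was -0.82, for Cdk5rap1 and Cdk5rap2. Of the 16805 other tested genes, Pnmal2 (r = 0.95), Gnb1l (0.94), Nt5c3b (0.92), Gpam (0.92) and 1810055G02Rik (0.92) were most like Cdk5 by this measure. Their log2 fold changes were -0.18, 0.22, 0.49, 0.48 and 0.73, so none of the 5 shared the ventral enrichment of Cdk5. As the highest of 16805 values over only 10 libraries, such r can arise from the search alone, and whether they exceed that was not tested. Gnb1l also averaged only 1.61 CPM.

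Genes related to Cdk5 and to its binding proteins were then taken from 10 lists. They cover the calpain system, tau with its kinases and phosphatases, Cdk5 substrates, other cyclin-dependent kinases, and genes that work with the binding proteins. Many of them do not act on or with Cdk5 itself, so the pooled values do not describe Cdk5 partners alone. The lists held 119 genes in all, of which 115 were tested. Of these, 7 were dorsal-enriched and 16 were enriched ventrally, and the median log2 fold change was -0.12, beside 15.7% dorsal-enriched, 9.85% ventral-enriched and a median of -0.0044 over all tested genes. The same background shares apply to the counts of each list below. The lists were drawn up with earlier results of these libraries known, and their counts are given as a description. All adjusted p-values below are from edgeR's quasi-likelihood test over all 16806 genes.

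In the 4 genes of the calpain system, which cuts p35 to p25, 1 was ventral-enriched and the median log2 fold change was -0.43. That gene was Cast, the calpain inhibitor calpastatin, at 6.57 ± 1.29 against 11.4 ± 1.2 CPM, dorsal mean first as in all pairs below (log2 fold change -0.79, SE 0.20, adjusted p = 0.00971). The catalytic subunits Capn1 (-0.37, SE 0.25) and Capn2 (-0.18, SE 0.16) did not pass the test (adjusted p = 0.272 and 0.414).

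Among tau and 19 genes for other tau kinases and for phosphatases and their partners, 2 were called enriched, both ventrally, at a median of -0.16. The same edgeR test without the fold threshold separates more of them, as Mark3 (0.49, adjusted p = 0.00314) and Csnk1d (-0.45, adjusted p = 0.00620), both named after their values were seen, show. Tau itself, Mapt, measured 356 ± 41 against 344 ± 44 CPM (log2 fold change 0.05, SE 0.11, adjusted p = 0.778). Gsk3b, the other main tau kinase, had a log2 fold change of -0.09 (SE 0.09, adjusted p = 0.509). Ppp2r1a, the scaffold subunit of the phosphatase PP2A, was ventral-enriched, at 152 ± 6 against 244 ± 37 CPM (-0.68, SE 0.11, adjusted p = 0.000659), but with the GC and length correction it was -0.44 and not called.

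Of 15 cytoskeletal and migration substrates 1 was dorsal-enriched and 2 were ventral-enriched at a median of -0.12. The microtubule-associated Map2 was higher in dorsal libraries (1148 ± 38 against 750.2 ± 67.3 CPM, log2 fold change 0.61, SE 0.08, adjusted p = 0.000179). The microtubule-destabilizing Stmn1 was higher in ventral libraries, at 129 ± 8 against 248 ± 10 CPM (-0.94, SE 0.09, adjusted p = 1.49e-05). Ndel1, a dynein regulator phosphorylated by Cdk5, was ventral-enriched at -0.69 (SE 0.18, adjusted p = 0.0111), but without ventral library 2, which measured 147 CPM, it was -0.48 and no longer passed the fold threshold.

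The 8 presynaptic substrates held 1 gene enriched in each direction, at a median of -0.27. Cacna1a, the pore subunit of the P/Q-type calcium channel, was dorsal-enriched (43.7 ± 5.4 against 19.3 ± 3.8 CPM, log2 fold change 1.17, SE 0.16, adjusted p = 0.000177). Dnm1, the GTPase dynamin 1 of synaptic vesicle endocytosis, was ventral-enriched (310.0 ± 26.7 against 523 ± 82 CPM, -0.75, SE 0.12, adjusted p = 0.000470), but with the GC and length correction it was -0.37 and not called.

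The 13 postsynaptic and signalling substrates had 3 dorsal-enriched and 2 ventral-enriched genes at a median of 0.19. The NMDA receptor subunits Grin2a (758 ± 57 against 347 ± 16 CPM, log2 fold change 1.13, SE 0.08, adjusted p = 3.16e-06) and Grin2b (1.01, SE 0.08, adjusted p = 3.31e-06) were higher in dorsal libraries. Kalrn, a guanine nucleotide exchange factor of dendritic spines, was higher in ventral libraries, at 5133 ± 1099 against 11283 ± 1107 CPM (-1.14, SE 0.13, adjusted p = 5.65e-05). Ctnnb1, beta-catenin, was ventral-enriched at -0.61 (SE 0.17, adjusted p = 0.0143) although its groups overlapped, and it lost the call without any 1 of dorsal libraries 1, 3, 4 and 5 or ventral library 3, at -0.51 to -0.57, and with the GC and length correction, at -0.48. Ppp1r1b, the phosphatase inhibitor DARPP-32, had a log2 fold change of 0.19 (SE 0.22, adjusted p = 0.530).

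Of 18 other cyclin-dependent kinases, 15 were tested, and Cdk1, Cdk2 and Cdk15 were below the filter. Of the 15, 3 were ventral-enriched and 1 was dorsal-enriched, at a median of -0.17. Cdk6, a partner of D-type cyclins, was higher in dorsal libraries, at 20.6 ± 10.2 against 3.61 ± 0.31 CPM (log2 fold change 2.47, SE 0.38, adjusted p = 0.000470). Cdk18 (-1.24, SE 0.24, adjusted p = 0.00196) and the transcription kinase Cdk9 (-0.92, SE 0.21, adjusted p = 0.00486) were higher in ventral libraries, although the groups of Cdk9 overlapped. The remaining ventral call was Cdk7 (-0.61, SE 0.19, adjusted p = 0.0266), named after its values were seen. The groups of Cdk7 also overlapped, and it lost the call in 11 of 21 alternatives.

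The partners of the binding proteins were described list by list. Cdk5rap3 was higher in ventral libraries, while of the 7 genes of UFM1 conjugation 1 was ventral-enriched, the conjugating enzyme Ufc1 (-0.71, SE 0.13, adjusted p = 0.00156), and the median was -0.0047. The other subunits of the ligase complex, Ufl1 (0.22, SE 0.25) and Ddrgk1 (0.19, SE 0.28), and the modifier Ufm1 (0.19, SE 0.13), did not pass the test (adjusted p = 0.523, 0.629 and 0.244). The positive value of Ufl1 rests on dorsal library 2, at 85.3 CPM. The other dorsal libraries, at 33.5 to 36.7 CPM, lay below the ventral mean of 39.4 CPM.

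Cdk5rap2 was higher in dorsal libraries, while of 18 tested centrosome and gamma-tubulin genes 1 was dorsal-enriched, 2 were ventral-enriched and the median was -0.24. Akap9, a scaffold protein of the centrosome and Golgi, was dorsal-enriched (200 ± 6 against 122 ± 10 CPM, log2 fold change 0.71, SE 0.09, adjusted p = 0.000139). Tubg1, gamma-tubulin itself (-0.91, SE 0.17, adjusted p = 0.00158), and Cenpj, a centriole protein at 0.891 ± 0.380 against 2.60 ± 1.40 CPM (-1.52, SE 0.47, adjusted p = 0.0219), were ventral-enriched. Cenpj lost the call without dorsal library 4 (-1.32) or ventral library 5 (-1.33). Pericentrin, Pcnt (-0.14, SE 0.21, adjusted p = 0.635), and Pde4dip, a paralog of Cdk5rap2 (-0.22, SE 0.12, adjusted p = 0.184), did not pass the test.

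The list for mitochondrial tRNA modification, the process of Cdk5rap1, held 12 genes, among them Cdkal1, which acts on cytosolic tRNA. Of the 12, 2 were called enriched, both ventrally, Mto1 (-1.01, SE 0.19, adjusted p = 0.00168) and Trmt5 (-0.91, SE 0.24, adjusted p = 0.0116), at a median of -0.03. Trit1, whose product makes the tRNA base that Cdk5rap1 modifies, had a log2 fold change of 0.18 (SE 0.28, adjusted p = 0.651), and Cdkal1, a related methylthiotransferase of cytosolic tRNA, -0.07 (SE 0.33, adjusted p = 0.898). Among the 5 partners of the Cables proteins, beta-catenin was the only gene called enriched, a ventral call that was lost in several settings as given above. The other 4 were higher in dorsal libraries, and the median was 0.16. Abl2 (0.58, adjusted p = 0.00110) and Robo1 (0.49, adjusted p = 0.00690), both named after their values were seen, passed the test but not the fold threshold, which was applied to mean CPM plus 1. Abl1 had a log2 fold change of 0.16 (SE 0.20, adjusted p = 0.557). With the GC and length correction 13 of the related genes were dorsal-enriched in place of 7.

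**Figure D5:**
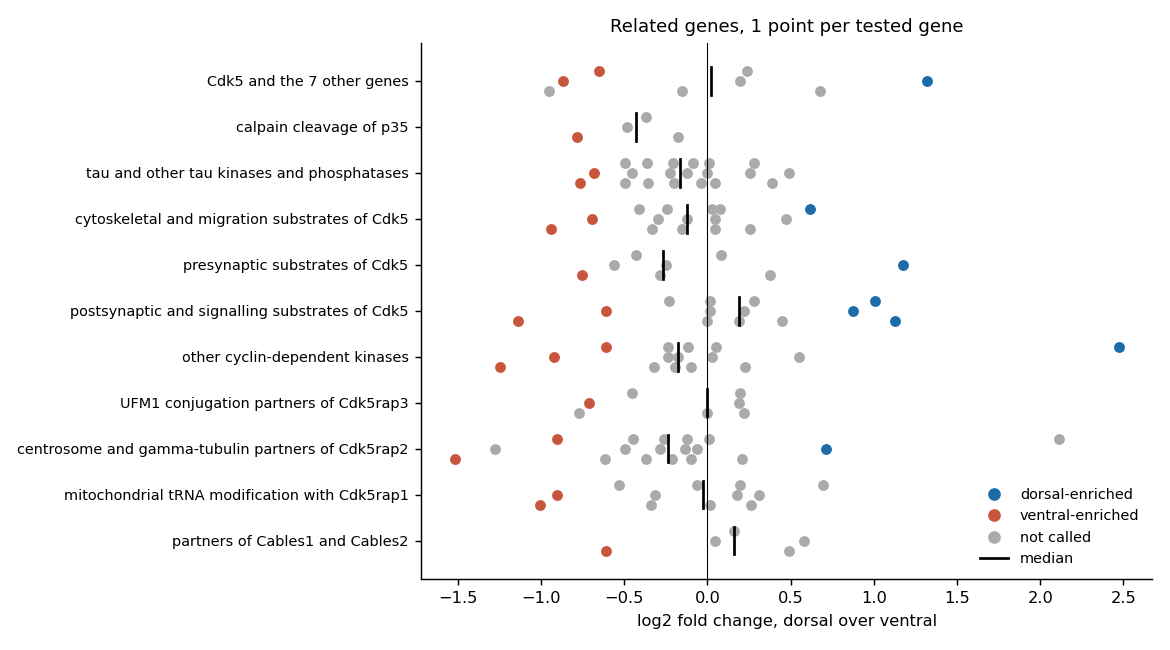
Log2 fold change, dorsal over ventral (horizontal axis), of Cdk5 and the other 7 genes (top) and of the tested genes of 10 related lists, 1 point per gene. Blue points are dorsal-enriched, red points ventral-enriched and grey points not called, and black lines are medians, which lie between -0.43 and 0.19.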

How the data were processed

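The authors amplified the TRAP RNA of each library with the Ovation RNAseq V2 kit, prepared TruSeq libraries, sequenced 50 bp paired ends on a HiSeq2500, aligned reads to GRCm38 with STAR 2.5.2b and counted them per gene with HTSeq 0.7.2. The deposited values are whole-number counts, 1 file per library, neither normalized nor filtered. The annotation release and the strand setting are not given in the sources used here.

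Groups and replicate numbers came from the sample labels, which give no batch. The 8 genes and all lists were chosen with earlier results of these data known. Symbols, coordinates, length and GC content came from GENCODE M21 and matched 54809 of 54838 identifiers. Genes were tested if 2 or more libraries had a CPM over 1, in R 4.3.3 with edgeR 4.0.16 (TMM, quasi-likelihood test, Benjamini-Hochberg adjustment). SE is the log2 fold change over the square root of F. The quasi-likelihood setting was picked after several had been compared, as the one that gives the counts of an earlier re-analysis of these data, which was not the study's own. At the same stated filter and cut-off values the study reported fewer enriched genes in each direction than the main fit here. The study states its fold cut-off for the log2 fold change, whereas here it was applied to the ratio of mean CPM plus 1. With edgeR's fold change for the threshold, 2679 genes were dorsal-enriched and 1719 ventral-enriched. The dispersions of edgeR 3 give fewer calls, and on simulated data the setting used here gave more p-values under 0.05 among unchanged genes than they did, so that its calls are the more liberal. Both regions came from the same mice, which the main fit does not model.

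Genes were named by rule: the 8 genes, 14 genes by role, up to 2 enriched genes per list and direction with the largest fold change, and the 5 genes most correlated with Cdk5. 1 gene that the rule names is not reported here. Marker lists of granule cells, astrocytes, microglia and endothelium were also summed. Alternatives were DESeq2 1.42.0 and its size factors, total counts, other filters, GC and length correction (mgcv 1.9.3), a replicate block, edgeR's fold change for the threshold, protein-coding genes alone and each library left out. Counts of library pairs within a group gave a chi-square of 4.36 to 45.1 per degree of freedom, where sampling noise alone gives about 1, so none was a duplicate. Floors cover counting error only, because PCR copies of a molecule carry no identifier and cannot be collapsed.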

Additional observations from a re-analysis of the deposited data

Results flagged for a closer look

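In the 47 named genes, 94 sets of 5 values (1 gene in 1 group) were examined for a library far from the other 4, by the gap to its neighbour over the whole range. Chance marks about 1 in 20 such sets, and 10 were marked. Among Cdk5 and its partners the only one was Cables2, at 28.3 CPM in ventral library 3 against 38.03 to 41.1 CPM in the others. Ndel1 stood at 147 CPM in ventral library 2, against 73.0 to 89.7 CPM. Ufl1 stood at 85.3 CPM in dorsal library 2 against 33.5 to 36.7 CPM, and Ctnnb1 at 91.3 CPM in the same library against 51.4 to 57.8 CPM. Dorsal library 1 was low for Ddrgk1, at 5.17 CPM against 12.3 to 14.9 CPM, and for Dnm1, at 263 CPM against 313 to 329 CPM, and high for Grin2a, at 856 CPM against 722 to 755 CPM. Ventral library 3 was high for Pcnt, at 19.7 CPM against 11.5 to 12.9 CPM, and low for Dnm1, at 383 CPM against 535 to 594 CPM. Grin2a was also high in ventral library 1, at 376 CPM against 336 to 344 CPM.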

How the results depend on the processing

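Over 21 alternatives, the 8 genes gave 168 values, of which 155 kept their direction and their side of the rule for enrichment, 5 fell short of it, 6 came to pass it and 2 changed sign. Cdk5rap2 kept its call in every one, at 1.18 to 1.43. The correction for GC content and length called 2 of the 8 genes dorsal-enriched and 0 ventral-enriched, and 13 related genes dorsal-enriched. With the replicate block added to it, these were 2, 0 and 14. Cables2 changed sign under both, to 0.11 and 0.12. Protein-coding genes alone gave 1665 dorsal-enriched genes in place of 2636, and the edgeR 3 dispersions, added after the data were seen, 2217 dorsal-enriched and 1408 ventral-enriched, in place of 2636 and 1655. Without a filter the median of all genes moved to 0.11, and Cdk5rap1 was ventral-enriched.

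Leaving out 1 library at a time gave 1 to 2 dorsal-enriched and 1 to 3 ventral-enriched genes among the 8; the lowest ventral count was without ventral library 5, and the highest dorsal count without ventral library 2. Cdk5 ranged from -0.73 to -0.60 over these and kept its call.

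With the replicate block, 2656 genes were dorsal-enriched and 1674 ventral-enriched, which left the calls of the 8 genes as they were, at 1 and 2. The regions share mice, but equal replicate numbers could not be shown to mark a shared pool: the correlations of their deviations from the group means were -0.032 to 0.069, and 2 of 5 dorsal libraries correlated best with their own number. Depth limits the low genes most, since Cdk5rap1, Cdk5rap3 and Cables1 rest on 24 to 221 counts per library.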

Other observations

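Markers of other cells were summed as well. The 4 granule cell markers summed to 365 to 497 CPM in dorsal and 359 to 502 CPM in ventral libraries, with 1 marker enriched in each direction, and the 5 astrocyte markers to 171 to 230.2 and 61.8 to 185 CPM, with 3 dorsal-enriched and 1 ventral-enriched. The 5 microglia markers summed to 19.5 to 23.6 and 12.3 to 24.8 CPM, with 1 dorsal-enriched. The 4 endothelial markers summed to 4.61 to 29.1 and 7.22 to 41.8 CPM, with no call in either direction, and Cldn5 was at 0 in 1 dorsal library.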
